A study of Mus musculus with 19 samples.

Results

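The effect of sleep deprivation on gene expression in the mouse locus coeruleus was estimated over both genotypes of the series together, to describe changes too small to be called in either genotype alone. All 19 libraries entered 1 fit of sleep state with genotype as a factor, the 10 libraries after deprivation against the 9 after sleep. Of 14443 genes tested, 704 passed an adjusted p of 0.05. Of these, 510 passed in neither genotype, each compared within a second fit of the same 19 libraries. These 510 genes, called shared-only genes here, are the members described below, 255 of them higher and 255 lower after deprivation. The 4 groups were WT_S6 (n = 4) and WT_SD6 (n = 5), from ABC-Ctrl mice, and CnB1KO_S6 (n = 5) and CnB1KO_SD6 (n = 5), from ABC-CnB1KO mice, in which CnB1, the regulatory subunit of the phosphatase calcineurin, was targeted. Tissue was taken 4 weeks after injection of AAV-hSyn-Cre, a virus that expresses Cre recombinase from the neuronal synapsin promoter. Mice of the S6 groups slept normally, and those of the SD6 groups were kept awake for 6 h. Brains were frozen and the locus coeruleus was dissected from cryosections, and poly(A) RNA was sequenced without strand information. The labels speak of biological replicates without tying a library to an animal, so the p-values measure the spread between these libraries.

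The locus coeruleus is the main source of noradrenaline for the forebrain, and its neurons fire during waking and fall silent in rapid eye movement sleep. Prolonged waking is known to raise immediate early genes, heat shock proteins and chaperones of the endoplasmic reticulum in the brain, and the handling that keeps animals awake also releases corticosterone, which acts through the glucocorticoid receptor. The endoplasmic reticulum folds secreted and membrane proteins, and when unfolded proteins build up, the transcription factors ATF6 and XBP1 raise its chaperones through a promoter sequence named the endoplasmic reticulum stress element. Cholesterol in the brain is made locally, in large part by glia, through the mevalonate pathway.

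The promoters of 4 shared-only genes that rose held this element, spelled CCAAT and CCACG with 9 bases of any kind between them and searched on both strands. Their sequences are printed because these genes belong to the list with the most shared-only rises, the chaperones of the endoplasmic reticulum. Each is the 200 bases before the transcription start in RefSeq (GRCm38.p6, plus strand, which is also the strand of the gene), 5′ to 3′, and capitals mark the element. The windows are chr15:88819446-88819645 for Creld2, chr10:75893198-75893397 for Derl3, chr2:34771890-34772089 for Hspa5 and chr12:17266389-17266588 for Pdia6.
Creld2: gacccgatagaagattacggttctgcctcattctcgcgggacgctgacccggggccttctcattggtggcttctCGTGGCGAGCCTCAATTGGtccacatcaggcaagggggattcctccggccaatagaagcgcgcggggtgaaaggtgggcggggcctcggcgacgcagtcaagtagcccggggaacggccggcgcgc
Derl3: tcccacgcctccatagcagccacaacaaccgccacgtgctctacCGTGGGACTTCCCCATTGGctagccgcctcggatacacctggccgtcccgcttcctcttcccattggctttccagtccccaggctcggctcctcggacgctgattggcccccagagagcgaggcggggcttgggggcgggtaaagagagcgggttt
Hspa5: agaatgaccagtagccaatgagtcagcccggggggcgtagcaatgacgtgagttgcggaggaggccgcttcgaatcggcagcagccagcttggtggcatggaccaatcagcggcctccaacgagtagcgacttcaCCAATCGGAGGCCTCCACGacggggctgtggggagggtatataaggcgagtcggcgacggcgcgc
Pdia6: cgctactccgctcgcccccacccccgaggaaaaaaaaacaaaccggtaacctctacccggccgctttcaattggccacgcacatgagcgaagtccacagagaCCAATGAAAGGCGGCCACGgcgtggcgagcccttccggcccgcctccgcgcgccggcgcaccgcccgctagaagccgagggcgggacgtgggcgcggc
Counted from the start, the element spans bases -126 to -108 in Creld2, -156 to -138 in Derl3, -65 to -47 in Hspa5 and -98 to -80 in Pdia6. In Creld2 and Derl3 the CCACG part lies upstream on the minus strand, and in Hspa5 and Pdia6 the CCAAT part comes first on the plus strand. A match describes these letters and is no evidence of a bound factor.

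Library depth lay between 3887298 and 7903253 counts, with CnB1KO_S6 library 13 the shallowest. Libraries are named by the number in their column of the deposited table. Ppp3r1, the gene of CnB1 (chr11:17159263-17200375), had TMM-scaled CPM (counts relative to library size) of 155 to 164 after sleep and 136 to 165 after deprivation in WT libraries, and of 120.4 to 152 and 123 to 141 in the same order in CnB1KO libraries. It was 1.19-fold lower in CnB1KO (adjusted p = 0.00766 by edgeR's quasi-likelihood test), a check of the genotype labels, and the difference did not pass with an oligodendrocyte marker score as covariate (adjusted p = 0.0869). Markers of noradrenergic neurons were present in every library, with a sum over 14 genes of 823.6 to 1984 CPM. Cerebellar granule and Purkinje cell markers, from tissue next to the dissected nucleus, summed to 792.0 to 4168 CPM over 15 genes, and their range was wide in each group.

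The shared-only genes changed little in size and in a single direction in both genotypes. By edgeR's quasi-likelihood test 4.87% of all genes passed in the pooled fit, 381 higher (2.64%) and 323 lower (2.24%). Within WT 165 genes passed (1.14%) and within CnB1KO 100 (0.692%), of which 66 passed in both. These comparisons came from 1 fit of the 4 groups, which shares its estimate of the spread over all 19 libraries. A further 95 pooled calls passed in WT and not in CnB1KO, 33 passed in CnB1KO and not in WT, and 5 genes passed in a single genotype without a pooled call, named after their values were seen as Acss1 in CnB1KO and Gm10033, Gm15912, Reno1 and Stk40 in WT. Separate fits of each genotype called fewer genes, 35 in WT and 70 in CnB1KO, so the order of the genotypes depended on the fit. With those fits 619 genes were shared-only, among them 501 of the 510. The 510 shared-only genes of the main fits make up 72.4% of the pooled calls.

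Their absolute log2 change ran from 0.08 to 1.49 with a median of 0.25, which is 1.19-fold. The change was under 1.25-fold for 331 of them, 1.25 to 1.5-fold for 124, 1.5 to 2-fold for 51 and over 2-fold for 4, Tekt4, Derl3, Fos and A730020M07Rik, the last of which was chosen after its value was seen. Over the 66 genes that passed in both genotypes the median was 0.48, and over all genes it was 0.06. Their median level was 11.5 FPKM (fragments scaled to transcript length and library size, n = 509 genes, 0.448 to 65.2 FPKM), and that of 14410 genes was 14.2 FPKM.

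The changes within each genotype are given as a description, because the pooled fit of the same libraries chose these genes. The median change in the direction of the pooled call was 0.25 in WT and 0.23 in CnB1KO, and the change was larger in WT for 286 of the 510 genes. At an unadjusted p under 0.05, 456 passed in WT, 445 in CnB1KO and 391 in both. The largest unadjusted p by edgeR was 0.273 in WT and 0.166 in CnB1KO. The smallest adjusted p was 0.0512 in WT and 0.0524 in CnB1KO. The direction was the same in both genotypes for 510 of 510 shared-only genes, beside 66% of all genes, but a pooled call selects such genes and nothing is read from it. The interaction of genotype and sleep state had an unadjusted p under 0.05 for 287 of all genes (1.99%) and for 0 of the 510, which the choice of members also favours. No gene passed the interaction after adjustment by edgeR or by limma voom, and 1 gene, the predicted gene Gm15446, which was named after its value was seen, did by DESeq2.

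**Figure D1:**
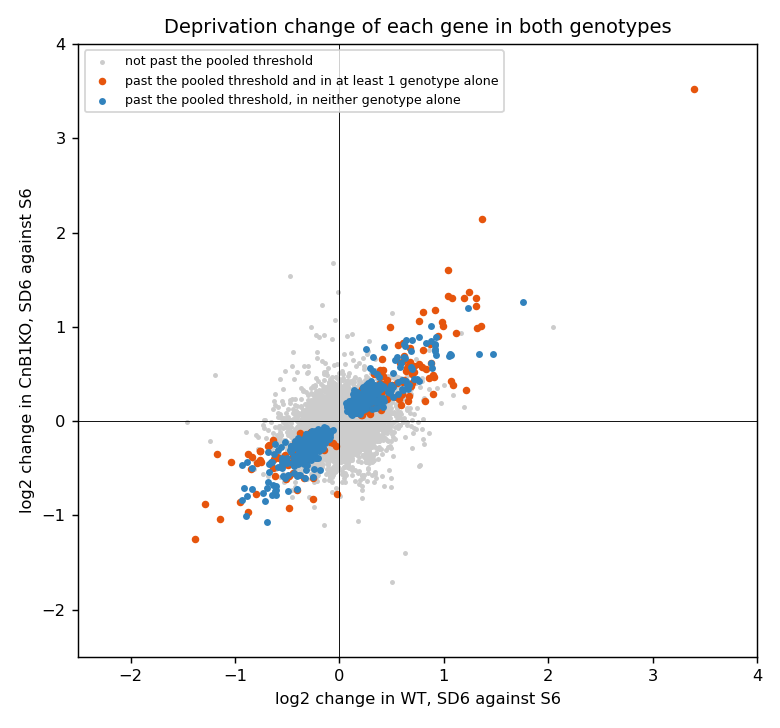
Each point is a gene, with its log2 change after deprivation in WT on the horizontal axis and in CnB1KO on the vertical axis; blue marks the 510 shared-only genes, orange the other pooled calls and grey the rest. The blue points lie close to the origin in the upper right and lower left, nearly all within 1 log2 unit, while Plin4 stands alone at the top right.

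Full separation of the libraries was found for few of them. The sleep and deprivation libraries did not overlap, in the same direction, in both genotypes for 47 shared-only genes (9.22%), beside 140 of all genes (0.969%). All 10 deprivation libraries lay on the same side of all 9 sleep libraries for 15 shared-only genes, beside 81 of all genes (0.561%). The named ones among the 15 are Rnpep and Lzts2, which were higher, and Fam228b, Cd180 and Ddr1, which were lower. These shares rest on the same libraries as the calls and are given as a description.

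Whether a weak change in one genotype was seen in the other was asked with fits of WT alone (9 libraries) and CnB1KO alone (10 libraries), which share no library. In WT alone 507 genes had an unadjusted p under 0.01 without passing the adjusted threshold of that separate fit. In CnB1KO 482 of them (95.1%) had an estimate in the same direction, beside 65.8% of all genes. An unadjusted p under 0.05 in the same direction was found for 249 (49.1%), beside 8.65% of all genes in the same and 1.04% in the opposite direction, and 0 of the 507 had it in the opposite direction. Their median change was 0.32 in WT, where they were chosen, and 0.18 in CnB1KO.

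The reverse choice gave like values. Of 427 genes chosen in CnB1KO, 403 (94.4%) had the same direction in WT and 216 (50.6%) an unadjusted p under 0.05 in that direction, beside 9.58% of all genes, and 0 had it in the opposite direction. The median change was 0.32 in CnB1KO and 0.23 in WT. Shared-only genes made up 192 of the 507 and 204 of the 427. The rest can include genes that the fit of 4 groups called in a genotype, so these shares are not those of the shared-only genes. These genes are not independent of each other, since genes in the same cells vary together, so no p is given for the shares.

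**Figure D2:**
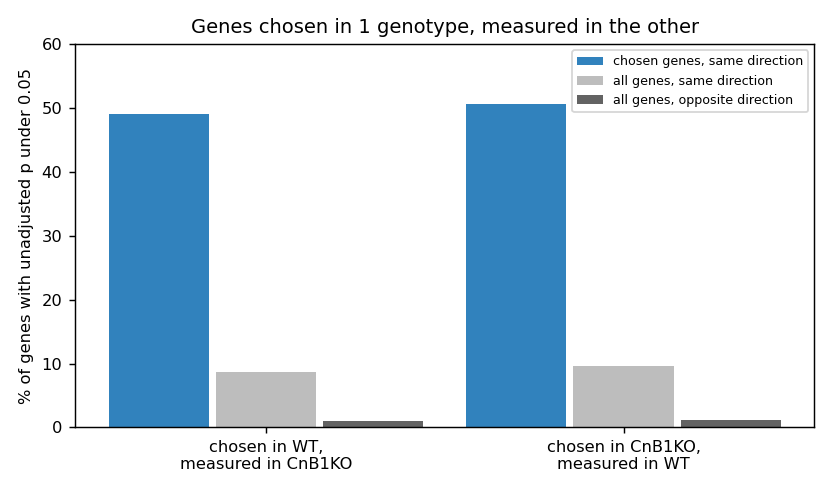
Bars give the percent of genes with an unadjusted p under 0.05 in the genotype in which they were not chosen, for the genes chosen at p under 0.01 in the other genotype (blue) and for all genes in the same (light grey) and the opposite direction (dark grey). Close to 50 percent of the chosen genes reached it, 49.1% in CnB1KO and 50.6% in WT, against 8.65% and 9.58% of all genes.

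Chaperones and folding enzymes of the endoplasmic reticulum rose in part. Of 25 measured members 11 rose (44%, beside 2.64% of all genes called higher) and 0 fell, and the median log2 change over the list was 0.13, beside 0.00 over all genes. Of the 11, 5 were shared-only, Creld2, Derl3, Hspa5, Pdia6 and Xbp1, and the other 6 also passed in at least 1 genotype. Estimates were above 0 for 25 of 25 members, down to 0.00 for Edem1.

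Creld2 (chr15:88819646-88826683) codes for a resident protein of the endoplasmic reticulum that is induced when unfolded proteins build up. It measured 23.5, 20.4, 20.5 and 21.6 CPM in the 4 WT sleep libraries and 26.4, 29.1, 22.6, 30.0 and 28 CPM in the 5 WT deprivation libraries. In CnB1KO, Creld2 measured 21, 18.4, 22.4, 21.9 and 20.9 CPM after sleep and 31.2, 25.4, 29.2, 22.2 and 26.7 CPM after deprivation. Of the 10 deprivation libraries 8 lay above all sleep libraries, and 1 deprivation library in each genotype lay within the sleep range. The pooled log2 change was 0.36 (SE 0.07), 1.28-fold, adjusted p = 0.00249 by edgeR.

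Derl3 (chr10:75893413-75895941), a derlin that helps to remove misfolded proteins from the endoplasmic reticulum, had the second largest change among shared-only rises that are named here, after Tekt4. Its levels were 2.99, 1.54, 0.859 and 2.16 CPM after sleep and 4.28, 6.78, 4.42, 3.27 and 3.34 CPM after deprivation in WT. In CnB1KO they were 2.89, 2.08, 1.09, 1.52 and 1.25 CPM and 6.54, 4.87, 3.47, 3.02 and 2.99 CPM. Within each genotype every deprivation library was above every sleep library, at low levels. Derl3 had a log2 change of 1.22 (SE 0.23), 2.32-fold, adjusted p = 0.0032.

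Hspa5 (chr2:34771970-34777547) encodes BiP, the Hsp70 chaperone of the endoplasmic reticulum. In WT it was at 173, 178, 158 and 169 CPM after sleep and at 194, 199.6, 189, 219 and 184 CPM after deprivation. In CnB1KO the values were 178, 165, 217, 165 and 173 CPM after sleep and 216, 191, 197, 203 and 220.0 CPM after deprivation. The WT groups did not overlap, and in CnB1KO 1 sleep library, the shallow library 13, stood among the deprived ones while the other 4 lay below them. Hspa5 had a log2 change of 0.21 (SE 0.05), 1.16-fold, adjusted p = 0.0163. Its mean FPKM was 52.6 after sleep and 61.6 after deprivation in WT, and 54.6 and 62.4 in CnB1KO.

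Pdia6 (chr12:17266545-17284770), a protein disulfide isomerase, measured 89.7, 86.9, 76.8 and 87.6 CPM in WT after sleep and 97.9, 97.3, 86.9, 107 and 95.6 CPM after deprivation. Its CnB1KO levels were 86.3, 81.5, 93.6, 85.1 and 84.1 CPM after sleep and 95.6, 93.1, 101, 95.7 and 112 CPM after deprivation. The ranges of both genotypes overlapped by a single library, with 8 of 10 deprivation libraries above all sleep libraries. Pdia6 had a log2 change of 0.20 (SE 0.04), 1.15-fold, adjusted p = 0.00942.

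Xbp1 (chr11:5520659-5525893), which encodes a transcription factor of the unfolded protein response, was at 72.5, 71.6, 65.7 and 68.5 CPM in WT after sleep and at 84.8, 87.7, 77.4, 91.3 and 73.9 CPM after deprivation. Its levels in CnB1KO were 73.1, 71.4, 70.1, 74.8 and 68 CPM after sleep and 88.4, 79.6, 72.4, 79.7 and 82.4 CPM after deprivation. The WT groups did not overlap, and in CnB1KO 1 deprivation library lay within the sleep range. Xbp1 had a log2 change of 0.21 (SE 0.04), 1.16-fold, adjusted p = 0.00658. The counts do not tell its spliced from its unspliced form.

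Among the other members of the list, Sdf2l1 rose 1.67-fold, adjusted p = 3.12e-06, Pdia4 rose 1.26-fold, adjusted p = 0.000535, and Dnajb11 rose 1.17-fold, adjusted p = 0.000208. Dnajc3, a BiP co-chaperone, rose 1.18-fold, adjusted p = 0.000267, the secreted factor gene Manf rose 1.2-fold, adjusted p = 0.000596, and Herpud1 rose 1.13-fold, adjusted p = 0.0015. The abundant chaperones Hsp90b1 (0.12 log2, adjusted p = 0.244), Calr (0.11, 0.294) and Canx (0.02, 0.891) did not pass, and neither did the sensor gene Atf6 (0.13, 0.157). The 5 shared-only calls held in each of the 19 fits that left out 1 library and with an oligodendrocyte marker score as covariate, where Hspa5 had an adjusted p of 0.0362 and Xbp1 of 0.0436.

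**Figure D3:**
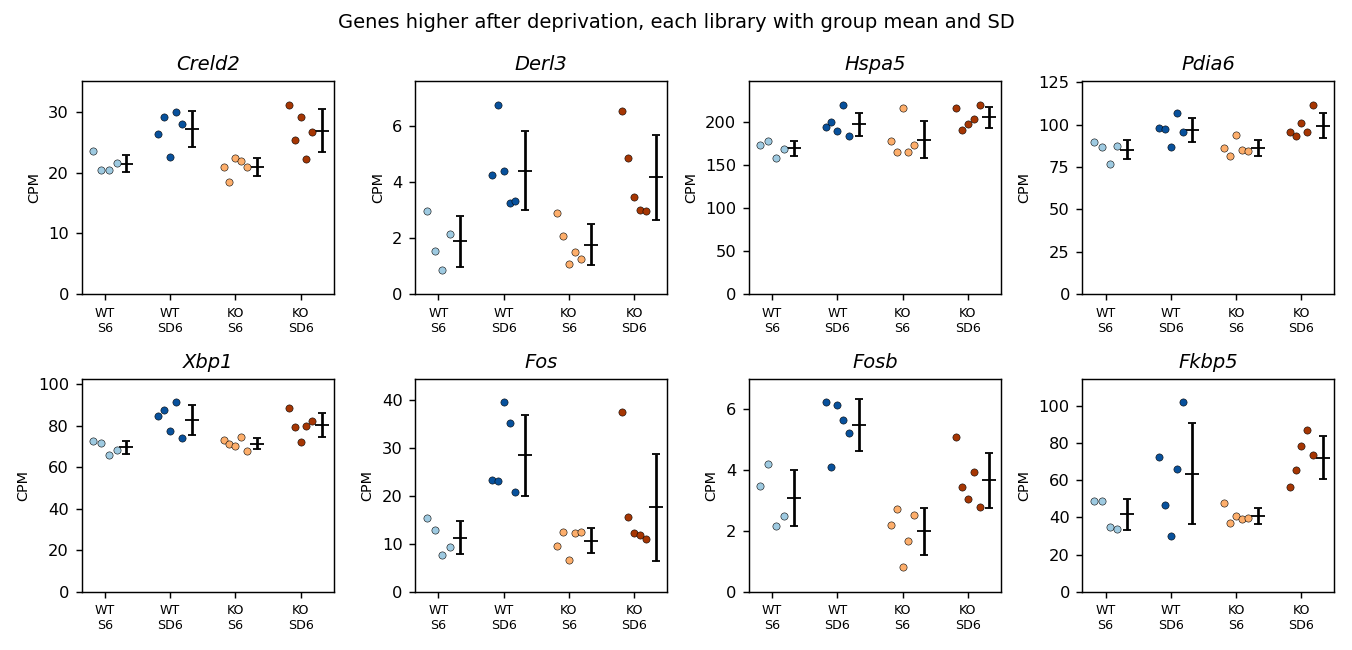
Points are single libraries in CPM for 8 shared-only genes that rose, in the order WT after sleep, WT after deprivation, CnB1KO after sleep and CnB1KO after deprivation, and bars give the group mean and SD. Derl3 separates in both genotypes, while Fos has 1 CnB1KO library at 37.4 CPM above 4 others near the sleep level.

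The endoplasmic reticulum stress element was rare in promoters from 250 bases before to 50 bases after the start. RefSeq held a promoter for 198 of the 255 higher and 177 of the 255 lower shared-only genes and for 11044 tested genes. It matched 4 of the 198 (2.02%), 0 of the 177 and 20 of the 11044 (0.181%), and 37 of the 27025 promoters of the whole table (0.137%). Of the 20 tested genes with a match 5 rose (25%) and 0 fell. These 5 were Creld2, Derl3, Hspa5, Pdia6 and Dnajc3, all in the chaperone list, which held 9 of the 20. Of the 11 genes with a match outside the list 0 passed in the pooled fit. Of the 12 list members with a promoter and no match 5 rose, so the element did not divide the list. Alg12, which is transcribed away from Creld2 across the same intergenic stretch and was chosen after its value was seen, had a log2 change of 0.02 (adjusted p = 0.957).

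Immediate early genes, which neurons switch on within minutes of activity, rose in part. Of 21 measured members 6 rose (28.6%, beside 2.64% of all genes) and 0 fell, and Fos and Fosb were shared-only. The median log2 change of the list was 0.20 in the pooled fit, 0.35 in WT and 0.06 in CnB1KO. Fos (chr12:85473890-85477273) codes for a subunit of the AP-1 transcription factor. It measured 15.3, 12.8, 7.58 and 9.41 CPM in WT after sleep and 23.3, 23.2, 39.5, 35.3 and 20.9 CPM after deprivation. In CnB1KO, Fos measured 9.54, 12.5, 6.55, 12.2 and 12.5 CPM after sleep and 37.4, 15.6, 12.2, 11.9 and 11.1 CPM after deprivation. All 5 WT deprivation libraries were above the sleep libraries, while in CnB1KO 1 library was high and the other 4 lay near the top of the sleep range. Fos had a log2 change of 1.01 (SE 0.23), 2.02-fold, adjusted p = 0.0152, with 1.33 in WT (adjusted p = 0.0562) and 0.71 in CnB1KO (adjusted p = 0.472). The difference between the genotypes did not pass edgeR's interaction test (adjusted p = 1), and the pooled call of Fos was lost with an oligodendrocyte score as covariate (0.66 log2, adjusted p = 0.121).

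Fosb (chr7:19302696-19310051), of the same family, was at 3.47, 4.17, 2.15 and 2.47 CPM in WT after sleep and at 6.2, 4.1, 6.1, 5.64 and 5.19 CPM after deprivation. Its CnB1KO levels were 2.17, 2.72, 0.819, 1.66 and 2.5 CPM after sleep and 5.07, 3.44, 3.04, 3.91 and 2.79 CPM after deprivation. In CnB1KO every deprivation library was higher than every sleep library, and in WT 1 deprivation library was just under the highest sleep library. Fosb had a log2 change of 0.83 (SE 0.17), 1.78-fold, adjusted p = 0.00578. Fosl2, Dusp1, Dusp6 and Bdnf rose and passed in WT as well. In CnB1KO none of them passed by edgeR (adjusted p = 0.069, 0.216, 0.394 and 0.293 in the same order). Bdnf, the gene of a neurotrophin, rose 1.35-fold, adjusted p = 0.00217, while Arc (-0.02 log2, adjusted p = 0.957), Homer1 (0.24, 0.0701) and Egr1 (-0.18, 0.401) did not pass.

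Genes that corticosterone is known to raise were the list with the largest share of calls, 17 of 21 higher (81%, beside 2.64% of all genes) and 0 lower. Their median log2 change was 0.65. The list was chosen with earlier results of these data known and holds large rises such as Plin4, so its share and rank are only a description. Most passed in a genotype alone. The 3 shared-only members were Fkbp5, Arrdc2 and Mt2. Fkbp5 (chr17:28399094-28517527), a co-chaperone of the glucocorticoid receptor, was at 48.9, 48.8, 34.8 and 33.9 CPM in WT after sleep and at 72.7, 46.9, 30.2, 65.8 and 102 CPM after deprivation. In CnB1KO, Fkbp5 was at 47.7, 36.8, 40.9, 38.9 and 39.5 CPM and 56.4, 65.3, 78.6, 86.8 and 73.5 CPM. WT libraries 7 and 8 lay within or below the sleep range while library 10 was the highest of all, and the CnB1KO groups did not overlap. Fkbp5 had a log2 change of 0.72 (SE 0.16), 1.65-fold, adjusted p = 0.0115. Arrdc2, an arrestin-domain gene, rose from a sleep range of 13.6 to 24.2 CPM to 17.7 to 46.7 CPM over both genotypes (1.71-fold, adjusted p = 0.00983).

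Mt2, a metal-binding metallothionein gene, rose 1.29-fold, adjusted p = 0.0309 and its call was lost without WT_S6 library 4, WT_SD6 library 9, CnB1KO_S6 library 14 or CnB1KO_SD6 library 19 or 20 (adjusted p up to 0.0701) and with DESeq2 (adjusted p = 0.0838). The glucocorticoid response element, GNACA and TGTNC with 3 bases of any kind between them, matched 0 of 198 promoters of the higher shared-only genes. It matched 4 of 105 promoters (3.81%) of genes that were higher and passed in at least 1 genotype, beside 0.407% of all tested genes.

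Of 25 cytosolic heat shock chaperones 7 rose (28%, beside 2.64% of all genes) and 0 fell. A positive estimate was found for 24 of them, beside 6988 of all 14443 genes. Hsph1, of the Hsp110 family, and Bag3, a co-chaperone of Hsp70, were shared-only. Hsph1 was at 193 to 277 CPM after sleep and 226 to 286 CPM after deprivation (1.15-fold, adjusted p = 0.0195), and the ranges overlapped in both genotypes. The highest sleep value was that of CnB1KO_S6 library 13. Bag3 was at 41.6 to 60.5 and 51.5 to 73.7 CPM (1.19-fold, adjusted p = 0.0459), and its call held in 4 of the 19 fits that left out 1 library (adjusted p up to 0.0948). Its call was also lost on FPKM, with the library total as covariate, with upper-quartile scaling and in the fit of 4 groups. Hspa1b, an inducible Hsp70 gene, rose 2.46-fold, adjusted p = 2.19e-05 and passed in both genotypes; its counts are uncertain because Hspa1a has nearly the same sequence.

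Genes of lipid and fuel use changed in part. Of 21 measured members of the lipid and fuel list 5 rose and 1 fell (28.6% in both directions together, beside 4.87% of all genes). Slc2a1 (chr4:119108711-119137983), the glucose transporter of the blood-brain barrier and of glia, was at 123, 123, 104 and 102 CPM in WT after sleep and at 141, 116, 126, 151 and 143 CPM after deprivation. In CnB1KO, Slc2a1 was at 121, 135, 138, 118 and 130.1 CPM after sleep and 136, 134, 162, 165 and 157 CPM after deprivation. Of the 10 deprivation libraries 6 were above all sleep libraries and the ranges overlapped in both genotypes. Slc2a1 had a log2 change of 0.24 (SE 0.06), 1.18-fold, adjusted p = 0.0166. Acer2, an alkaline ceramidase gene, rose 1.35-fold, adjusted p = 0.0306, a call lost without WT_S6 library 1 or 4, CnB1KO_S6 library 11 or CnB1KO_SD6 library 18 or 19 (adjusted p up to 0.0638) and on the log2(FPKM + 1) scale (adjusted p = 0.0572). Irs2, which relays insulin signals, rose 1.1-fold, adjusted p = 0.0306, and Acot2, a mitochondrial acyl-CoA thioesterase gene, fell (1.31-fold, adjusted p = 0.0455). Irs2 kept its call in 10 and Acot2 in 6 of the 19 fits that left out 1 library (adjusted p up to 0.0657 and 0.0848), and Acot2 also lost it with upper-quartile scaling and in the fit of 4 groups.

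Rnpep (chr1:135262712-135284084), an aminopeptidase gene, had the smallest p of all shared-only genes. It was at 40.0, 44.4, 46.1 and 45 CPM in WT after sleep and at 49.2, 47.3, 51.1, 49.8 and 52.3 CPM after deprivation. In CnB1KO, Rnpep was at 45.2, 44.7, 43.7, 45.5 and 42.9 CPM and 51.8, 50.4, 49.2, 51 and 51.2 CPM. Every one of the 10 deprivation libraries lay above every one of the 9 sleep libraries. Rnpep had a log2 change of 0.19 (SE 0.03), 1.14-fold, adjusted p = 0.000908, with 0.19 in WT (adjusted p = 0.0562) and 0.19 in CnB1KO (adjusted p = 0.0615).

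Lzts2 (chr19:45014414-45027111), a leucine zipper gene, separated as fully, with 63.5, 65.6, 70.8 and 62.8 CPM in WT after sleep and 72.1, 76.4, 77.6, 73.5 and 73.6 CPM after deprivation. Its CnB1KO levels were 68.8, 71.6, 68.8, 64.9 and 67.5 CPM and 74.7, 76.8, 83.1, 79 and 71.9 CPM. No deprivation library fell into the sleep range, though the lowest of them was close to the highest sleep library. Lzts2 had a log2 change of 0.18 (SE 0.03), 1.13-fold, adjusted p = 0.00177.

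Xdh (chr17:73883895-73950196), xanthine dehydrogenase of purine breakdown, moved more and spread more. It measured 12.5, 14.4, 17.5 and 16.8 CPM in WT after sleep and 31.3, 16.4, 21, 28 and 42.8 CPM after deprivation. In CnB1KO, Xdh measured 16.5, 20.2, 20.2, 15.5 and 23.7 CPM and 25.8, 33.1, 38.8, 38.7 and 36.6 CPM. WT library 7 stayed within the sleep range and library 10 was the highest, while the CnB1KO groups did not overlap. Xdh had a log2 change of 0.86 (SE 0.14), 1.82-fold, adjusted p = 0.00109, and on the log2(FPKM + 1) scale the gene did not pass (adjusted p = 0.0871).

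Cbs (chr17:31608894-31637238), cystathionine beta-synthase, which turns homocysteine into cystathionine, was at 58.6, 54.8, 55.9 and 55.4 CPM in WT after sleep and 70.3, 60.5, 70.4, 75.3 and 81.4 CPM after deprivation. In CnB1KO, Cbs was at 57.4, 72.6, 54.3, 66.1 and 67.1 CPM and 76.3, 72.6, 88, 86 and 73.5 CPM. The groups did not overlap in WT and met at 1 value in CnB1KO, where the highest sleep and the lowest deprivation library agreed to 3 digits. Cbs had a log2 change of 0.33 (SE 0.06), 1.26-fold, adjusted p = 0.00179. Smox, spermine oxidase, rose from 63.9 to 86.2 to 73.5 to 98 CPM (1.2-fold, adjusted p = 0.00207).

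Spag5, a spindle protein gene, rose from 24 to 31.1 to 30.4 to 41.6 CPM (1.28-fold, adjusted p = 0.00158) and did not pass on the log2(FPKM + 1) scale (adjusted p = 0.0654). Mis12, a kinetochore gene, rose from 35.6 to 42.6 to 39.9 to 51.1 CPM (1.16-fold, adjusted p = 0.00173).

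The others of the 12 shared-only rises with the smallest p are given by their size. Gpr179, an orphan receptor known from retinal bipolar cells, rose 1.88-fold, adjusted p = 0.00148, with WT_SD6 library 10 at 47.6 CPM above the other 4 at 19.1 to 23.8 CPM. Mapk4, an atypical MAP kinase gene, rose 1.17-fold, adjusted p = 0.00168, and Ppm1h, a phosphatase gene of the PP2C family, rose 1.11-fold, adjusted p = 0.00201. Rin2, an activator of the endosomal GTPase Rab5, rose 1.29-fold, adjusted p = 0.00189, and the RING finger gene Lonrf3 rose 1.24-fold, adjusted p = 0.00193.

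Genes of cholesterol synthesis fell in part. Of 23 measured members 4 fell (17.4%, beside 2.24% of all genes called lower) and 0 rose, and all 4, Lss, Mvk, Mvd and Dhcr7, were shared-only. Estimates were below 0 for 21 of 23, and the median log2 change was -0.09. The 4 genes act early (Mvk, mevalonate kinase, and Mvd, the next decarboxylase), in the middle (Lss, which closes the sterol rings) and at the end (Dhcr7) of the pathway.

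Lss (chr10:76531588-76557138) was at 121, 119.7, 116 and 105 CPM in WT after sleep and at 101, 90.4, 78.6, 85.5 and 103 CPM after deprivation. In CnB1KO, Lss was at 112, 106, 114, 107 and 129.9 CPM after sleep and 86.3, 93.1, 82.5, 106 and 105 CPM after deprivation. The groups did not overlap in either genotype, although in CnB1KO the gap was under 1 CPM. Lss had a log2 change of -0.30 (SE 0.06), 1.23-fold, adjusted p = 0.00474.

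Mvk (chr5:114444269-114460591) measured 35, 38.9, 32.2 and 30.5 CPM in WT after sleep and 30.0, 28.7, 26.4, 28 and 30.1 CPM after deprivation. Its CnB1KO levels were 35.1, 37.2, 35.2, 38.4 and 33.7 CPM and 26.5, 28.9, 32.4, 32 and 31.7 CPM. Again the groups were apart within each genotype, while the sleep libraries of WT reached down to the deprivation libraries of CnB1KO. Mvk had a log2 change of -0.25 (SE 0.05), 1.19-fold, adjusted p = 0.00566.

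Mvd fell from 29 to 40.2 to 24.9 to 32.3 CPM (1.18-fold, adjusted p = 0.0139) and Dhcr7 from 61.4 to 78.3 to 55 to 68.7 CPM (1.13-fold, adjusted p = 0.0131). The feedback gene Insig1 (-0.15 log2, adjusted p = 0.0944) did not pass. Mature oligodendrocyte markers moved with these falls in WT, where their mean log2 CPM was 7.02 ± 0.12 (SD, n = 4) after sleep and 6.77 ± 0.13 (SD, n = 5) after deprivation. In CnB1KO it was 7.14 ± 0.19 (SD, n = 5) and 7.07 ± 0.16 (SD, n = 5). With that score as a covariate Lss kept its call (-0.24 log2, adjusted p = 0.0346) and so did Mvk (-0.22, 0.0311), while Mvd (-0.19, 0.0812) and Dhcr7 (-0.14, 0.0749) did not. Dhcr7 also did not pass on the log2(FPKM + 1) scale (adjusted p = 0.366).

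**Figure D4:**
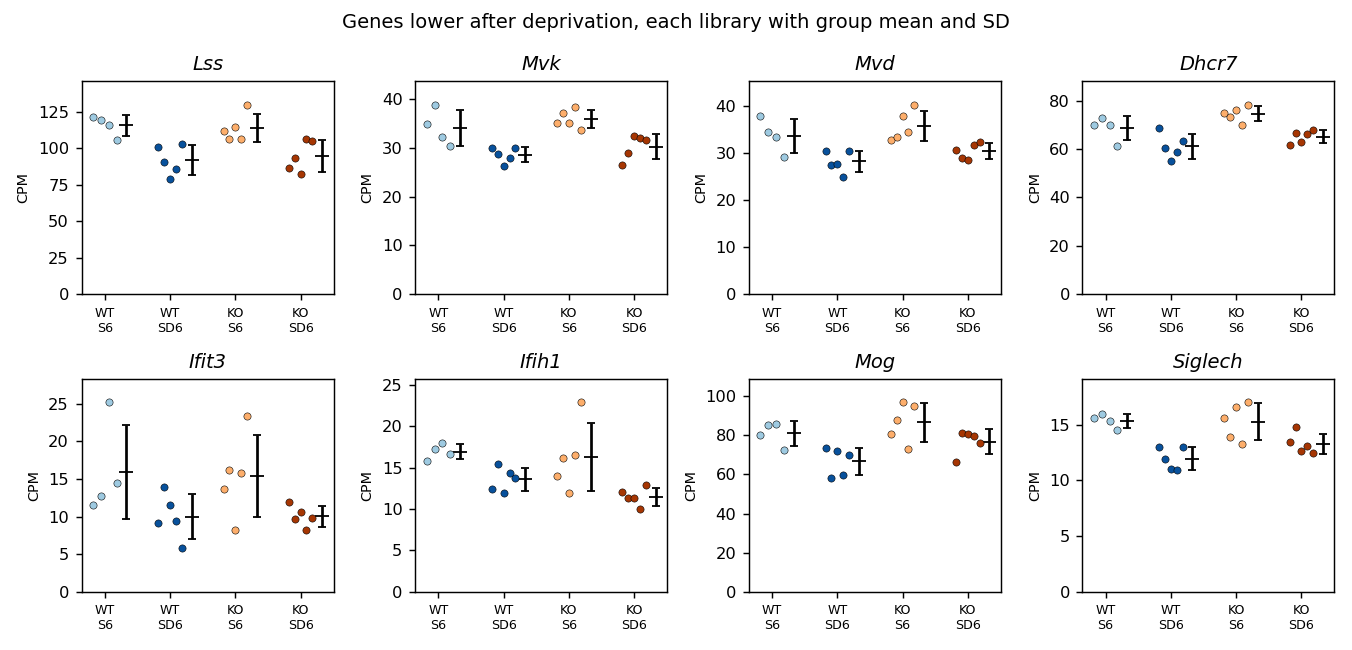
Points are single libraries in CPM for 8 shared-only genes that fell, in the order WT after sleep, WT after deprivation, CnB1KO after sleep and CnB1KO after deprivation, and bars give the group mean and SD. Lss and Mvk separate within each genotype, while 1 or 2 sleep libraries of Ifit3 stand far above the rest.

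A few transcripts of the interferon response fell. Of 18 measured members 4 fell (22.2%, beside 2.24% of all genes called lower) and 0 rose. All 4 were shared-only, and the median log2 change of the list was -0.23. Ifih1 (chr2:62595798-62646255), a sensor of viral RNA, measured 15.8, 17.3, 18 and 16.7 CPM in WT after sleep and 12.4, 15.4, 11.9, 14.4 and 13.8 CPM after deprivation. In CnB1KO, Ifih1 measured 14, 16.2, 12, 16.5 and 22.9 CPM and 12.1, 11.3, 11.3, 9.95 and 12.9 CPM. The WT groups were apart, and in CnB1KO the lowest sleep library lay within the deprivation range. Ifih1 had a log2 change of -0.42 (SE 0.10), 1.34-fold, adjusted p = 0.0139, and on the log2(FPKM + 1) scale the gene did not pass (adjusted p = 0.0501).

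Ifit2 fell from 24.4 to 32.2 to 18.7 to 27 CPM (1.23-fold, adjusted p = 0.018). Ifit3 was at 8.19 to 25.2 CPM after sleep and 5.81 to 14 CPM after deprivation (1.58-fold, adjusted p = 0.0386), with single high sleep libraries in both genotypes, and it shares sequence with a near copy, so its counts are uncertain. Xaf1, an interferon-induced gene of cell death, fell from 9.26 to 15.8 to 6.05 to 13 CPM (1.38-fold, adjusted p = 0.0345). Calls of Ifit3 and Xaf1 held in 7 and 8 of the 19 fits that left out 1 library (adjusted p up to 0.0918 and 0.0763). With the oligodendrocyte score as covariate Ifih1 kept its call (adjusted p = 0.0136). Ifit2 lost it at a log2 change of -0.29, beside -0.30 without the score (adjusted p = 0.0529), and Ifit3 at -0.73, beside -0.66 (adjusted p = 0.0583). Xaf1 lost it at -0.33, beside -0.47 (adjusted p = 0.164). On the log2(FPKM + 1) scale Ifit3 did not pass either (adjusted p = 0.0672). Ddx60, an interferon-induced helicase gene outside the list, fell 1.85-fold, adjusted p = 0.046 and kept its call in 4 of the 19 fits (adjusted p up to 0.112). Ddx60 also lost its call in 5 of the other alternatives, among them limma voom, FPKM and the oligodendrocyte score. Irf7 (-0.30 log2, adjusted p = 0.446) and Isg15 (-0.04, 0.961) did not pass.

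Cd46 (chr1:195036826-195092249), a regulator of complement, measured 24.1, 24.1, 24.6 and 24.4 CPM in WT after sleep and 19.4, 18.6, 16.2, 18.7 and 22.2 CPM after deprivation. In CnB1KO, Cd46 measured 22.4, 18.3, 21.8, 19.6 and 19 CPM and 17, 16.9, 14.5, 15.6 and 16.1 CPM. Within each genotype all deprivation libraries lay below all sleep libraries, and the CnB1KO sleep level reached into the WT deprivation range. Cd46 had a log2 change of -0.34 (SE 0.06), 1.27-fold, adjusted p = 0.00133, and on the log2(FPKM + 1) scale Cd46 did not pass (adjusted p = 0.23).

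Cd180 (chr13:102693558-102739629), a relative of the toll-like receptors found on microglia and B cells, was at 4.57, 4.32, 6.44 and 4.32 CPM in WT after sleep and at 3.1, 3.96, 2.29, 1.64 and 2.1 CPM after deprivation. Its CnB1KO levels were 5.64, 4.81, 4.37, 4.15 and 6.55 CPM and 2.29, 3.72, 2.61, 2.31 and 1.59 CPM. All 10 deprivation libraries were under all 9 sleep libraries, at low levels. Cd180 had a log2 change of -0.95 (SE 0.16), 1.93-fold, adjusted p = 0.00148, and it held in each of the 19 fits that left out 1 library and with the oligodendrocyte score (adjusted p = 0.00904). In such tissue, fewer cells of a type and less RNA per cell cannot be told apart.

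Siglech (chr7:55768178-55778925), a lectin of microglia, measured 15.6, 16, 15.3 and 14.5 CPM in WT after sleep and 13, 11.9, 11, 10.9 and 13 CPM after deprivation. In CnB1KO, Siglech measured 15.6, 13.9, 16.6, 13.3 and 17 CPM and 13.4, 14.8, 12.6, 13.1 and 12.5 CPM. Its WT groups were apart and its CnB1KO groups overlapped. Siglech had a log2 change of -0.27 (SE 0.06), 1.21-fold, adjusted p = 0.0172, and the call was lost with the oligodendrocyte score (adjusted p = 0.126). Of 14 microglia markers 2 fell, Siglech and Cx3cr1 (14.3%, beside 2.24% of all genes called lower), and 0 rose. The mean log2 CPM of the list was 4.55 ± 0.07 (SD, n = 4) and 4.33 ± 0.17 (SD, n = 5) in WT after sleep and deprivation, and 4.57 ± 0.07 (SD, n = 5) and 4.54 ± 0.11 (SD, n = 5) in CnB1KO. In WT its summed level was 417 to 460.4 CPM after sleep and 332 to 429 CPM after deprivation, and in CnB1KO 421 to 455 CPM and 394 to 467 CPM. The part of microglial content in the falls of Cd180 and Siglech was not tested.

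Of the other falls with the smallest p, 2 separated fully. Fam228b (chr12:4739888-4769267) was at 20.5, 21.8, 18.7 and 17.6 CPM in WT after sleep and at 13, 15.1, 12, 14.7 and 17.4 CPM after deprivation. In CnB1KO, Fam228b was at 18.6, 18.3, 22.4, 17.8 and 17.9 CPM and 11.9, 16.5, 12, 13.5 and 13.7 CPM. All deprivation libraries were below all sleep libraries. Fam228b had a log2 change of -0.46 (SE 0.08), 1.37-fold, adjusted p = 0.00134.

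Ddr1 (chr17:35681567-35704621), a collagen receptor with tyrosine kinase activity that oligodendrocytes also express, measured 163, 152, 153 and 146 CPM in WT after sleep and 139, 127, 133, 138 and 130.5 CPM after deprivation. Its CnB1KO levels were 154, 175, 173, 146 and 162 CPM and 143, 144, 145, 142 and 145 CPM. The 19 libraries again fell into separate ranges, with CnB1KO deprivation just under the lowest sleep library. Ddr1 had a log2 change of -0.19 (SE 0.03), 1.14-fold, adjusted p = 0.00217, and it held with the oligodendrocyte score (-0.15, adjusted p = 0.0175).

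Slc6a6 (chr6:91684053-91759066), the taurine transporter gene, was at 232, 203, 217 and 213 CPM in WT after sleep and at 191, 194, 198, 172 and 181 CPM after deprivation. In CnB1KO, Slc6a6 was at 219.6, 244, 234, 218 and 214 CPM and 193, 208, 199.5, 202 and 201 CPM. Within each genotype the groups did not overlap, and 9 of 10 deprivation libraries lay below all sleep libraries. Slc6a6 had a log2 change of -0.19 (SE 0.03), 1.14-fold, adjusted p = 0.00236.

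The others of the 12 shared-only falls with the smallest p are given by their size. Snx4, a sorting nexin of endosomes, fell 1.13-fold, adjusted p = 0.00148, and Arsg, a lysosomal sulfatase gene, fell 1.39-fold, adjusted p = 0.00228. The centrosome genes Lrrcc1 and Ofd1 fell 1.15-fold, adjusted p = 0.00241, and 1.24-fold, adjusted p = 0.00249. Slc25a16, a mitochondrial carrier gene, fell 1.18-fold, adjusted p = 0.00256, the RING finger gene Rnf141 fell 1.14-fold, adjusted p = 0.00185, and Phf14, a reader of histone tails, fell 1.11-fold, adjusted p = 0.00261. Lrrcc1 and Phf14 did not pass on the log2(FPKM + 1) scale (adjusted p = 0.138 and 0.0642).

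Markers of the glia and vessels that the tissue holds changed in part. Of 14 astrocyte markers 1 rose (7.14%, beside 2.64% of all genes called higher). Of 13 markers of oligodendrocyte precursors and newly formed oligodendrocytes 1 fell (7.69%, beside 2.24% of all genes called lower). Of 15 markers of pericytes, smooth muscle and fibroblasts 1 fell (6.67%, beside the same 2.24%). From a single call in lists of this size nothing is read about the cell type. Of 16 mature oligodendrocyte markers 3 fell (18.8%, beside 2.24% of all genes called lower) and 0 rose. Their summed level was 2427 to 2795 CPM after sleep and 2274 to 2599 CPM after deprivation in WT, and 2420 to 3666 CPM and 2458 to 3087 CPM in CnB1KO. Mog, a myelin glycoprotein gene, was the shared-only one. It was at 80.1, 85.5, 86.1 and 72.5 CPM in WT after sleep and at 73.4, 58.1, 71.8, 59.8 and 70.2 CPM after deprivation. In CnB1KO, Mog was at 80.6, 88, 96.9, 73.3 and 95 CPM and 66.5, 81.2, 80.9, 79.9 and 75.9 CPM. Both genotypes showed overlap. Mog had a log2 change of -0.22 (SE 0.06), 1.17-fold, adjusted p = 0.04, the call held in 9 of the 19 fits that left out 1 library (adjusted p up to 0.0859), and it was lost on the log2(FPKM + 1) scale (adjusted p = 0.0545). It was also lost with the oligodendrocyte score (-0.09, adjusted p = 0.121), but Mog is 1 of the 16 markers in that score, so its own change is part of the covariate. Opalin, another oligodendrocyte gene, fell 2.1-fold, adjusted p = 4.34e-06 and passed in both genotypes.

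Of 15 endothelial markers 3 rose and 1 fell (26.7% in both directions together, beside 4.87% of all genes). Ly6c1 rose from 21.9 to 33.6 to 27.3 to 39.1 CPM (1.29-fold, adjusted p = 0.00578), with counts made uncertain by the near copy Ly6c2. Slc2a1 rose as given above, and Itm2a fell 1.16-fold, adjusted p = 0.0306, a call that held in 11 of the 19 fits that left out 1 library (adjusted p up to 0.0639) and was lost with the oligodendrocyte score (adjusted p = 0.162). The endothelial list had a mean log2 CPM of 5.40 ± 0.10 (SD, n = 4) and 5.52 ± 0.12 (SD, n = 5) in WT after sleep and deprivation, and 5.76 ± 0.11 (SD, n = 5) and 5.75 ± 0.16 (SD, n = 5) in CnB1KO. With the oligodendrocyte score as covariate 251 of the 510 shared-only genes (49.2%) were still called, and with a noradrenergic or a cerebellar score 510 of 510 were. The oligodendrocyte score includes Opalin, Mog and Aspa, which fell. In WT it ran from 6.85 to 7.11 after sleep and from 6.6 to 6.92 after deprivation. It thus carries part of the deprivation effect, and a call lost with it cannot tell oligodendrocyte content from deprivation.

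Other lists held 1 or 2 shared-only genes each. Of 25 genes of the MAP kinase pathway and its phosphatases 5 rose, and of 27 genes of insulin, FoxO and mTOR signalling 4 rose, beside 2.64% of all genes. Spred1, an inhibitor of the Ras and MAP kinase pathway, rose from 192 to 216 to 214 to 230.2 CPM (1.09-fold, adjusted p = 0.00818) and the groups did not overlap within a genotype. Foxo4, a transcription factor restrained by insulin signalling, rose 1.16-fold, adjusted p = 0.0175. Kcnn2, a calcium-activated potassium channel gene and the single call of 36 channels, rose 1.17-fold, adjusted p = 0.0211. The splicing regulator gene Tra2a, the single call of 30 splicing factors, rose 1.12-fold, adjusted p = 0.0174. These single calls make up 2.78% and 3.33% of their lists, near the 2.64% of all genes called higher, so nothing is read about the lists. Spred1, Foxo4, Kcnn2 and Tra2a each kept the call in the 19 fits that left out 1 library, and Tra2a lost it with the oligodendrocyte score (0.14 log2, adjusted p = 0.0839).

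Other such calls rested on more of the libraries. Nfil3, a repressor at the D-box of clock output genes, rose 1.3-fold, adjusted p = 0.0446 beside Per1 (1.31-fold, adjusted p = 0.000226) and Dbp, which fell (1.36-fold, adjusted p = 2.74e-05) and passed in both genotypes. Nr3c2, the mineralocorticoid receptor gene, fell 1.15-fold, adjusted p = 0.0401, Eif3b, a subunit of an initiation factor, rose 1.08-fold, adjusted p = 0.0317, and Lars, leucyl-tRNA synthetase, fell 1.1-fold, adjusted p = 0.032. These calls held in 5 (Nfil3), 5 (Nr3c2), 10 (Eif3b) and 9 (Lars) of the 19 fits that left out 1 library, with adjusted p up to 0.0983, 0.0776, 0.0671 and 0.0692. Chac1, an enzyme that degrades glutathione, rose 1.21-fold, adjusted p = 0.0296 and lost its call without WT_S6 library 1, WT_SD6 library 7 or CnB1KO_S6 library 12 or 15 (adjusted p up to 0.0581) and with the oligodendrocyte score (adjusted p = 0.0708). That score also ended the calls of Nfil3, Nr3c2 and Lars, and on FPKM Nfil3, Nr3c2, Eif3b and Lars did not pass.

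**Figure D5:**
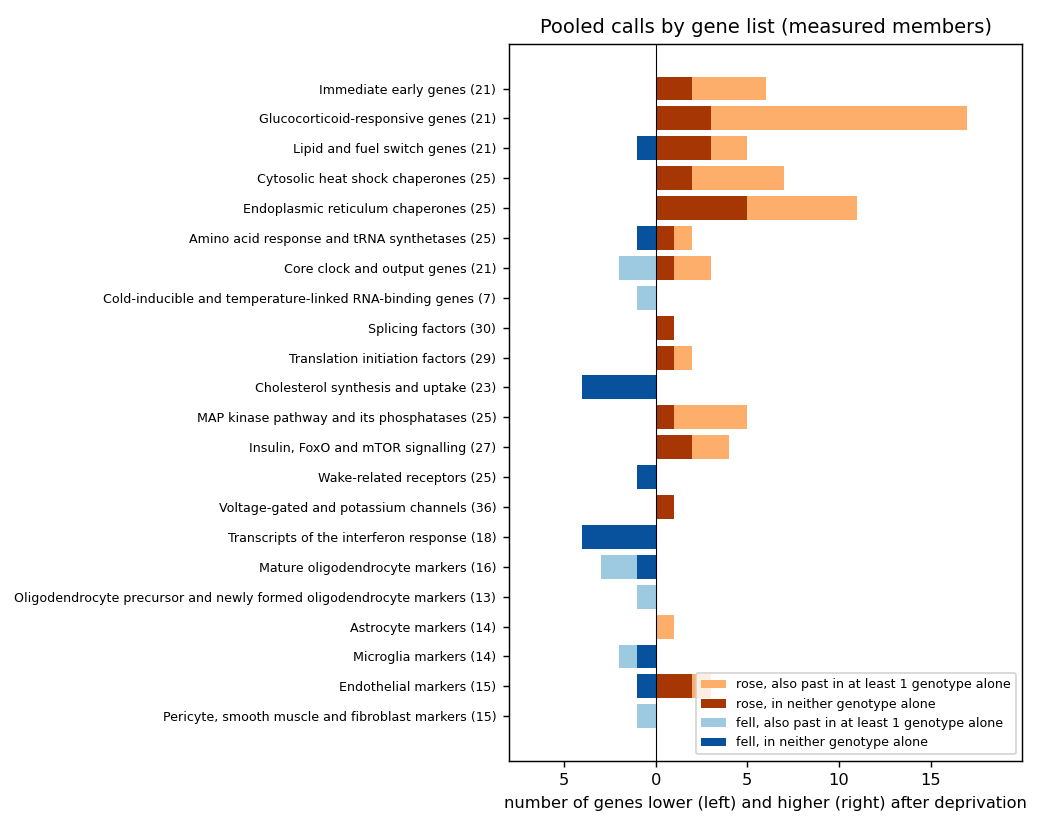
Bars give the number of genes past the pooled threshold in each list with at least 1 call, to the right for rises and to the left for falls, dark for shared-only genes and light for genes that also passed in at least 1 genotype, with the measured members in brackets. Endoplasmic reticulum chaperones have the most shared-only rises (5 of 25), and cholesterol synthesis and interferon transcripts have 4 falls each, all shared-only.

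In 14 lists no gene passed in the pooled fit. They include 36 ribosomal protein genes, 26 ribosome biogenesis factors, 30 proteasome subunits, 33 nuclear subunits of oxidative phosphorylation and 28 genes of autophagy and lysosomes. The 34 sleep-need kinases and calcineurin genes and the 36 receptors and scaffolds of glutamate and GABA synapses held no call either, and list medians lay between -0.02 and 0.01 in these 7 lists. A gene without a call is not shown to be unchanged.

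Genes of the noradrenergic neurons themselves were among those without a call. Th, which makes the precursor of noradrenaline, was at 82.1 to 140.1 CPM after sleep and 58.8 to 153 CPM after deprivation (0.05 log2, SE 0.15, adjusted p = 0.933). Dbh, the enzyme of the last step, had -0.05 (SE 0.12, adjusted p = 0.911), and Slc6a2, the noradrenaline transporter gene, -0.09 (SE 0.15, adjusted p = 0.849). The peptide gene Gal had 0.17 (SE 0.16, adjusted p = 0.689). It passed in 1 of 33 alternatives, with the noradrenergic score as covariate (adjusted p = 0.0121). Gal is 1 of the 14 markers in that score, so its own level is part of the covariate and nothing is read from that call. Cirbp, a cold-induced RNA-binding gene, fell 1.4-fold, adjusted p = 4.03e-06 and passed in both genotypes, and Rbm3, of the same family, had -0.05 (adjusted p = 0.864) by counts, while on the log2(FPKM + 1) scale it fell by 0.35 and passed (adjusted p = 0.00198).

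Tekt4 (chr17:25454615-25476602), a tektin of ciliary microtubules with the largest shared-only change, measured 4.26, 3.39, 1.14 and 1.39 CPM in WT after sleep and 10.8, 3.11, 3.66, 11.3 and 14.1 CPM after deprivation. In CnB1KO, Tekt4 measured 2.75, 4.65, 3.55, 2.77 and 2.34 CPM and 8.17, 4.87, 8.54, 9.24 and 7.57 CPM. WT libraries 7 and 8 were in the sleep range, and the CnB1KO groups did not overlap. Tekt4 had a log2 change of 1.49 (SE 0.29), 2.82-fold, adjusted p = 0.00446. For comparison Plin4, a lipid droplet gene with the largest pooled change, rose 11-fold, followed by Fam83d (3.42-fold), and both passed in each genotype.

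At the other end stood genes with changes of 6 to 8 percent. Hip1r, an endocytic adaptor gene, had the smallest change, from 137 to 146 to 129.7 to 141 CPM (1.06-fold, adjusted p = 0.0489), and Ccdc127 was at 105 to 116 CPM after sleep and 112 to 124 CPM after deprivation (1.07-fold, adjusted p = 0.0402). Gigyf2, a repressor of translation, rose 1.07-fold, adjusted p = 0.0409, the F-box gene Fbxo33 rose 1.07-fold, adjusted p = 0.0261, and the splicing gene Prpf18 rose 1.07-fold, adjusted p = 0.0393. The tyrosine kinase gene Abl1 fell 1.07-fold, adjusted p = 0.0493. These calls held in 2 (Abl1) to 15 (Fbxo33) of the 19 fits that left out 1 library, with adjusted p up to 0.0987 for Gigyf2. On the log2(FPKM + 1) scale none of these 6 passed. Just inside the threshold were Nrbp2, Tent5a and Ttf1, each with an adjusted p of 0.049982. Just outside were Greb1l with 0.050193, Zfp322a with 0.050433 and Pla2g4e with 0.051114.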

How the data were processed

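Gene expression was measured by poly(A) RNA sequencing in 19 libraries of dissected locus coeruleus. The authors deposited whole-number counts per gene for 14443 symbols in 1 table, and separate tables of FPKM for each of the 4 groups. Named in the submitters' processing notes, without role or order, are the build GRCm38, HTSeq 2.0.4, StringTie 2.2.1, Picard 2.18.29, FastQC 0.12.1, SAMtools 1.6 and Trim Galore 0.6.10. Aligner, annotation, strand setting and duplicate handling were not given in the sources used here. Reads of overlapping genes on opposite strands cannot be told apart, since the kit does not mark strand. The 19 TPM columns were not used. The columns of the count table name a group and a number that runs on across the groups, unlike the labels' replicate numbers, so libraries were mapped to groups only.

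The deposited counts, after TMM scaling, went into the 2-sided quasi-likelihood F test of edgeR 4.0.16 (R 4.3.3), with genotype and sleep state as factors over 19 libraries (16 residual degrees of freedom, common dispersion 0.0116). Its low-count filter kept 14443 genes. Changes within a genotype and the interaction came from a model with 4 group means, which leaves 15 residual degrees of freedom. The threshold was 0.05 on the p adjusted over all 14443 genes by Benjamini-Hochberg, and SE is the absolute log2 change divided by the square root of F. A shared-only gene passed in the pooled fit and in neither genotype of the model with 4 group means. The depth of 3887298 to 7903253 counts per library limits low genes most, and counts of dense genes rise less than in proportion to depth, for which the log2 library total served as an alternative covariate. FPKM were tested with limma 3.58.1 on log2(FPKM + 1), with 0.1 as the other pseudocount. DESeq2 1.42.0, limma voom, other scalings, covariates, thresholds and leaving out each library were alternatives. The fits were tested on simulated data.

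Named genes were Ppp3r1, the 12 shared-only rises and 12 falls with the smallest p, the 4 of each with the smallest change, up to 5 shared-only members of each list, the 5 largest pooled rises and falls, 3 genes on either side of the threshold, and 12 genes named in any case, with a mean log2 CPM of at least 1 and no provisional symbol. The 36 lists (24 of pathways, 12 of cell types, 761 of 791 genes measured), the members and the rules were chosen with earlier results of these data known. Positions are from the GENCODE M21 annotation of GRCm38 (97.6% of symbols matched), and promoters are from RefSeq (GRCm38.p6). A few named genes are not reported here.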

Additional observations from a re-analysis of the deposited data

Results flagged for a closer look

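Within a group, 1 library of a named gene stood apart from the others (Dixon's test at 95%) in 24 of 384 gene and group pairs, where chance gives about 1 in 20, which is 5 percent. All values are CPM, with the range of the other libraries of the group after them. CnB1KO_S6 library 13, the shallowest, was high for Hspa5 (217, others 165 to 178), Nrbp2 (189.7, 137 to 148), Ppp3r1 (152, 120.4 to 127), Fam228b (22.4, 17.8 to 18.6) and Fam83d (2.18, 1.12 to 1.40). In the same group library 12 was low for Gal (19.2, 30.0 to 34.3) and high for Smox (86.2, 72.2 to 74.1), library 14 high for Nfil3 (17.3, 13.6 to 14.3) and library 15 high for Ppm1h (149, 138 to 141).

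In CnB1KO_SD6 library 16 was high for Fos (37.4, 11.1 to 15.6) and Rbm3 (48.1, 37.3 to 38.2), library 17 for Nr3c2 (70.5, 54.3 to 58.1) and library 18 for Foxo4 (62.2, 46 to 50). In WT_S6 library 1 was low for Nrbp2 (144, 159.5 to 162), library 2 high for Rin2 (54.5, 46.9 to 47.0), library 3 high for Cd180 (6.44, 4.32 to 4.57), and library 4 low for Mapk4 (83.3, 93.1 to 94.9) and Mt2 (4.01, 4.63 to 4.73). In WT_SD6 library 8 was low for Irs2 (156, 173 to 177) and Tent5a (16.3, 31.2 to 35.2), library 9 low for Abl1 (105, 116 to 120.0) and high for Nrbp2 (145, 127 to 129.5), and library 10 high for Gpr179 (47.6, 19.1 to 23.8) and Slc25a16 (45.7, 41.1 to 42.2).

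Symbols with deposited FPKM but without counts, which the comparisons above do not use, also held pooled changes. Of 3161 such symbols 29 passed with limma (0.917%), 19 higher and 10 lower. Among them, chosen after their values were seen, Fbxw23 rose by 1.41 on the log2(FPKM + 1) scale (SE 0.15, adjusted p = 2.98e-05), Tm6sf2 rose by 1.04 (SE 0.21, adjusted p = 0.0184) and Galr2, a galanin receptor gene, rose by 0.48 (SE 0.11, adjusted p = 0.0443).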

How the results depend on the processing

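No called gene named here changed direction under any alternative run. The pooled estimates of Arc, Dbh, Ppp3r1 and Th, which did not pass, changed sign in some, that of Th to no lower than -0.0. The pooled count was 704 (381 higher, 323 lower) and the shared-only count 510 (255 higher, 255 lower). With the oligodendrocyte score as covariate the lower calls were 214 and 156 of these shared-only, and with the cerebellar score the pooled count was 1200 (654 higher, 546 lower) and the shared-only count 797 (405 higher, 392 lower). On FPKM the lower calls were 206 with a pseudocount of 1 and 200.0 with 0.1. At a threshold of 0.01 on the adjusted p the shared-only genes were 197 (119 higher, 78 lower), and at 0.1 they were 786 (388 higher, 398 lower). Leaving out 1 library gave 500.0 to 719 pooled, 284 to 407 higher and 212 to 342 lower calls, the fewest lower ones without WT_S6 library 2, and 380.0 to 535 shared-only genes. Of the 510 shared-only genes 226 (44.3%) were called in each of the 19 such fits, and 129 were shared-only in each. Of the 72 named shared-only genes 49 were called in each. Without the shallowest library and with the library total, an alternative chosen after seeing the data, the counts were 717 and 508. The CnB1KO against WT change of Ppp3r1 was -0.28 with the oligodendrocyte score (adjusted p = 0.0869, main -0.26). The causes were not tested. No paired analysis was possible because the columns are numbered on across the groups and carry the labels' replicate numbers in WT_S6 at most. Depth limits small changes and genes of few counts most.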

Other observations

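The promoters of the shared-only genes were also described for other elements, on both strands and over the same 300-base window, with no test. The cyclic AMP response element TGACGTCA was in 12 of 198 promoters of the higher genes (6.06%), in 5 of 177 of the lower genes (2.82%) and in 3.5% of all tested genes. The clock E-box CACGTG was in 15.7% of the higher, 9.6% of the lower and 11.5% of all tested genes. The AP-1 site TGANTCA was in 14 promoters of the higher genes (7.07%), in 15 of the lower genes (8.47%) and in 677 of the 11044 of all tested genes. In the same order, the D-box TTATGNAA was in 2.53%, 2.26% and 2.52%, and the amino acid response element TGATGNAA in 1.01%, 3.95% and 2.69%. The heat shock element, GAA, TTC and GAA with 2 bases of any kind between each, was in 0.505%, 0.565% and 0.561%.

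Gene structure was compared without a test. The median exon length was 4434 bases for the higher and 5233 for the lower shared-only genes, beside 4531 over all genes, and the median span of the gene was 20519, 27614 and 25083 bases. Protein-coding genes made up 94.4% of the higher and 84.9% of the lower ones, beside 92.9% of all. Long non-coding genes numbered 13 of the 250 higher and 36 of the 251 lower genes with an annotation, beside 919 of all 14101 annotated genes. Without strand information, reads of a long non-coding gene that overlaps a coding gene cannot be told apart from it.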
